A study of Mus musculus with 18 samples.

Results

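The genes described are 9 chemokine receptor genes, Ccr2, Ccr4, Ccr6, Ccr7, Ccr8, Ccr9, Cxcr3, Cxcr4 and Cxcr6, chosen by name and matched through their Ensembl identifiers among the 35275 gene identifiers of the deposited table. All 9 were measured and all 9 passed the filter on low values (at least 1 FPKM in at least 3 libraries), which left 12223 genes to test. RNA was sequenced from Foxp3+ regulatory T cells (Treg), the CD4+ lineage that restrains other immune cells, of male mice aged 6 to 8 weeks. There were 18 libraries in 6 groups of 3. The 5 deletion groups carried Foxp3-YFP-cre together with floxed alleles of Dyrk1, of HDAC1, of HDAC2, of Mef2c or of Mef2d, and the wild-type (WT) group carried Foxp3-YFP-cre without a floxed allele. Every group, WT included, therefore carried the cre and its yellow fluorescent protein (YFP), driven by Foxp3, so that deletion was directed to Foxp3-expressing cells. Cells were enriched for CD4 on a column and then sorted on YFP. The series describes the 3 replicates of a group as independent and biological. The labels do not say whether Dyrk1 is Dyrk1a or Dyrk1b, and the growth protocol speaks of Rcor1 knockout mice although no group label names that gene.

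Chemokine receptors are receptors with helices that span the membrane and signal through inhibitory G proteins, and they steer cells along gradients of chemokines. In Treg they set where the cells travel. Ccr7 leads them into lymph nodes and the T cell zone, Cxcr4 holds them in bone marrow, and Ccr9 draws them to the small intestine. Ccr4 and Ccr8 are typical of activated Treg in skin and other tissues, Cxcr3 of Treg that restrain Th1 responses, and Ccr6, Cxcr6 and Ccr2 of cells that enter inflamed tissue.

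The libraries were first checked against their labels. Libraries held 15.9 to 24.1 M reads, as recovered from the values. The 9 Treg and CD4 T cell markers summed to 2090 to 2470 FPKM in the 18 libraries, and none of them was at 0. Of the targeted genes, Hdac1 averaged 32.0 FPKM in HDAC1-labelled libraries, against 119 in WT (log2 -1.87). The other targeted genes were not lower in their labelled groups: Hdac2 averaged 27.9 FPKM against 28.3 in WT, Mef2c 1.27 against 0.476, Mef2d 53.4 against 41.7, Dyrk1a 33.1 against 27.7 and Dyrk1b 11.8 against 7.0. A value over a whole gene does not by itself check the loss of a floxed exon, and the groups are called by their labels throughout. Dyrk1 replicate 1, Mef2d replicate 1 and Mef2c replicate 1 stood apart in the 10 B cell markers, with summed levels of 406, 183 and 130 FPKM. The other 15 libraries summed to 29.3 to 88.8 FPKM. The Mef2c-labelled libraries summed to 62.4 to 130 FPKM, against 29.3 to 48.8 FPKM in WT. The Mef2c values above are low, and the part of B cells in them was not tested.

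**Figure D1:**
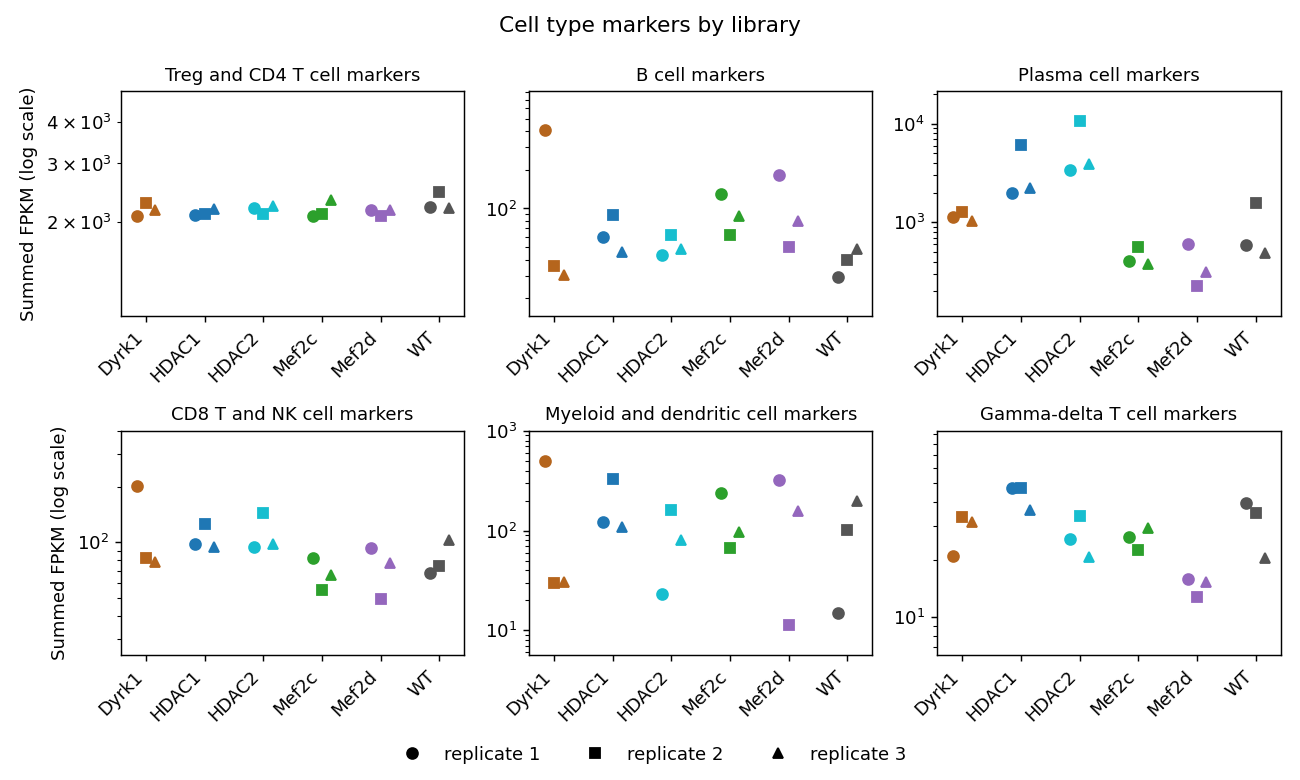
Summed level in FPKM (vertical axes, log scale) of 6 lists of cell type markers in each of the 18 libraries, by deletion label and WT. Treg and CD4 T cell markers stayed between 2090 and 2470 FPKM, while B cell markers reached 406 FPKM in Dyrk1 replicate 1 and plasma cell markers 10600 FPKM in HDAC2 replicate 2.

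Levels are given in FPKM, a read count scaled for both gene length and sequencing depth, and can be compared between genes. In WT Treg, Ccr7 was the highest of the receptors at 205 ± 19.6 FPKM (SD, n = 3), above 97.8% of the tested genes. Cxcr4 (45.9 ± 0.957 FPKM) and Ccr8 (36.0 ± 4.33) followed, above 87.0% and 82.9% of the tested genes. Cxcr3 (24.4 ± 4.58), Ccr4 (23.7 ± 4.68), Cxcr6 (20.7 ± 1.60) and Ccr6 (16.7 ± 3.06) lay close together. Ccr2 (10.8 ± 2.09) and Ccr9 (4.47 ± 1.09) were the lowest, and Ccr9 stood above 30.6% of the tested genes. Each value of a receptor in a library rested on at least 288 recovered reads, the lowest being Ccr9 in WT replicate 2.

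**Figure D2:**
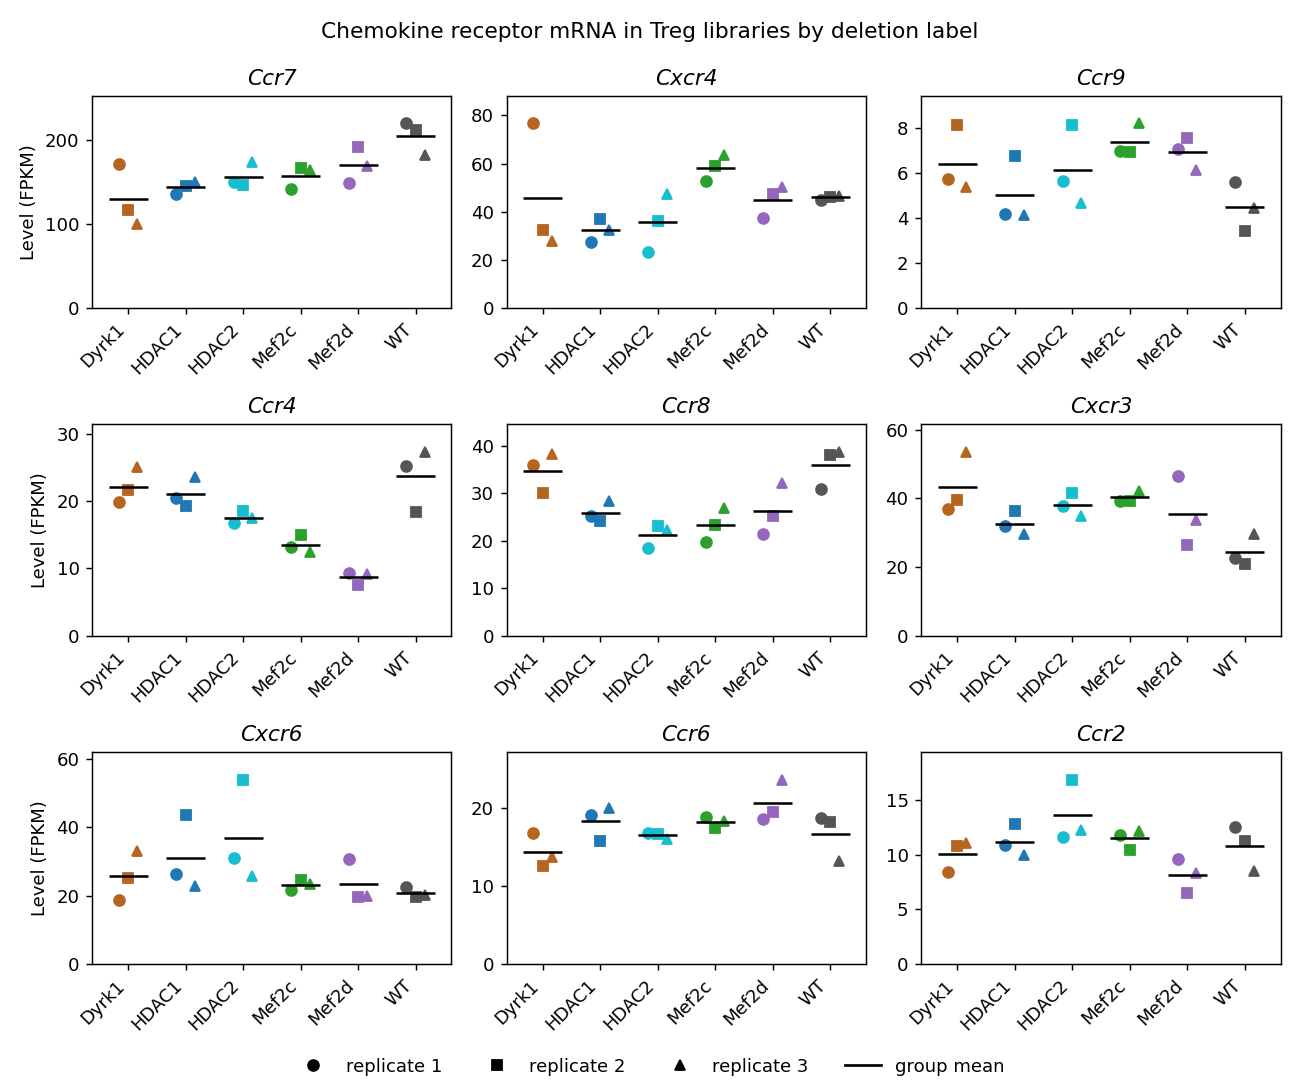
Level in FPKM (vertical axes, from 0) of the 9 chemokine receptor genes in each library, by deletion label and WT, with a bar at the mean of each group of 3. Ccr4 stepped down across HDAC2-, Mef2c- and Mef2d-labelled libraries, Ccr7 was highest in WT, and Cxcr3 was lowest in WT.

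Against WT, Cxcr3 rose, Ccr4 and Ccr8 fell, Ccr7 fell and Ccr9 rose, each in some of the deletion groups, while Ccr2, Ccr6, Cxcr4 and Cxcr6 passed in none. Each receptor was tested with limma on log2(FPKM + 1) over all 18 libraries, with p-values adjusted over all tested genes and a threshold of 0.05. In Dyrk1-labelled libraries Cxcr3 rose and Ccr7 fell, 2 of 9 receptors, against a background of 11.1% of all tested genes higher and 6.19% lower. In HDAC1-labelled libraries Ccr7 fell and 0 receptors rose (1 had a rise at an unadjusted p under 0.05), beside 2.32% of all genes lower and 10.2% higher. In HDAC2-labelled libraries Cxcr3 rose and Ccr4 and Ccr8 fell, beside 16.1% of all genes higher and 9.41% lower. In Mef2c-labelled libraries Cxcr3 and Ccr9 rose and Ccr4 and Ccr8 fell, 4 of 9, beside 12.9% higher and 6.06% lower. In Mef2d-labelled libraries Ccr4 and Ccr8 fell and 0 receptors passed as higher (3 had a rise at an unadjusted p under 0.05), beside 7.95% lower and 13.9% higher.

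Read in either direction, the share of all genes called was 17.3% for the Dyrk1 label, 12.5% for HDAC1, 25.6% for HDAC2, 19.0% for Mef2c and 21.9% for Mef2d. The receptors' counts of 2, 1, 3, 4 and 2 of 9 lie near these shares apart from the 4 with the Mef2c label, a difference that was not tested, and they give no result about the receptors as a family. Ccr4 lies on chromosome 9, and Ccr8, Ccr9, Cxcr6 and Ccr2 lie on it too, between 5.596 and 9.61 Mb from Ccr4. The calls of Ccr4, Ccr8 and Ccr9 thus fall in a single stretch, and the part of their position was not tested. The median log2 change of the 9 receptors was -0.08, 0.06, 0.00, 0.13 and -0.04 in that order, against 0.02, 0.05, 0.05, 0.04 and 0.04 over all tested genes. Of the 3 homeostatic and tissue-homing receptors (Ccr7, Cxcr4, Ccr9), 1 fell with the Dyrk1 and the HDAC1 label and 1 rose with the Mef2c label. Of the 6 effector and inflammatory receptors, 1 rose with the Dyrk1 label, 1 rose and 2 fell with the HDAC2 label as with the Mef2c label, and 2 fell with the Mef2d label. An F test over the 6 groups passed for Ccr4 (adjusted p 1.88e-05), Ccr8 (0.00527), Cxcr3 (0.0225) and Ccr7 (0.0344), 4 of 9 receptors beside 38.6% of all genes, and 2 of 9 without WT replicate 1 or without WT replicate 2. The 5 comparisons share the 3 WT libraries, so a low or high WT value enters all of them. In bulk RNA, fewer cells that carry a transcript and less transcript per cell cannot be told apart.

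**Figure D3:**
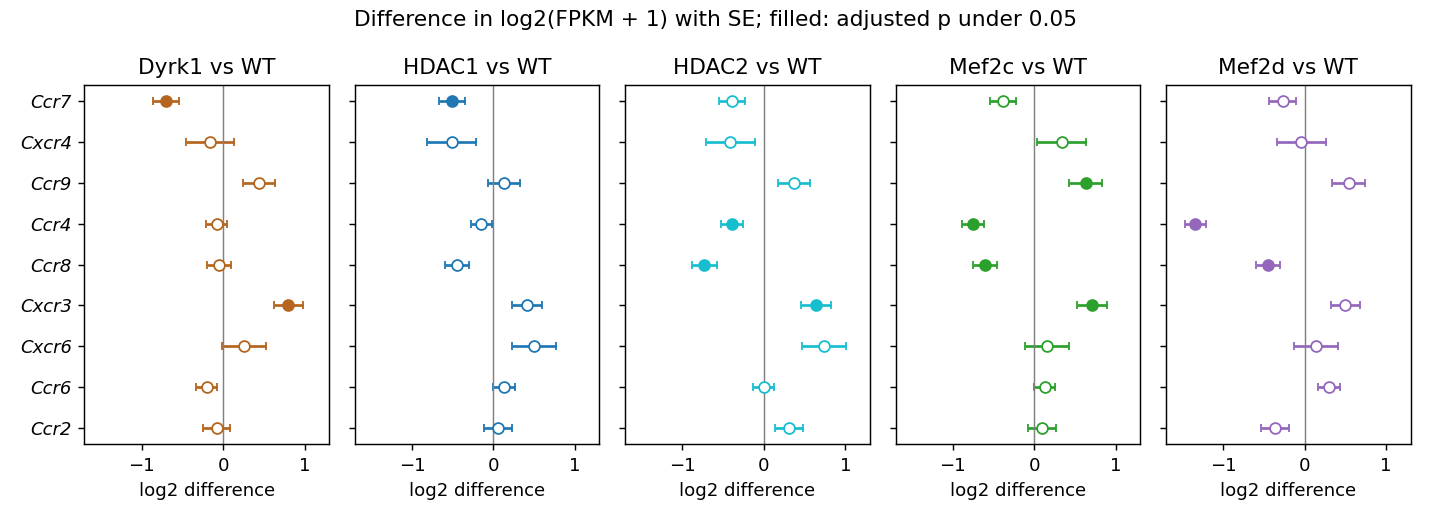
Difference in log2(FPKM + 1) between each deletion group and WT (horizontal axes) for the 9 receptors, with bars of 1 standard error and filled points where the adjusted p was under 0.05. Ccr4 lay furthest left with the Mef2d label at -1.34, and Cxcr3 lay right of 0 in all 5 panels and passed in 3.

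Ccr7, the receptor for the lymph node chemokines Ccl19 and Ccl21, fell in the Dyrk1 and HDAC1 comparisons. Its levels were 172, 117 and 99.3 FPKM in Dyrk1-labelled libraries, 136, 146 and 149 FPKM in HDAC1-labelled libraries and 150, 146 and 174 FPKM in HDAC2-labelled libraries. They were 141, 166 and 165 FPKM with the Mef2c label and 149, 192 and 169 FPKM with the Mef2d label, against 220, 213 and 183 FPKM in WT. Every Dyrk1-, HDAC1-, HDAC2- and Mef2c-labelled library lay below every WT library, and 1 Mef2d-labelled library overlapped WT. The log2 change was -0.70 with the Dyrk1 label (SE 0.16, adjusted p 0.0093) and -0.51 with the HDAC1 label (SE 0.16, adjusted p 0.0471). From low to high the groups ran Dyrk1, HDAC1, then HDAC2 and Mef2c at 157 FPKM each, Mef2d and WT, and every neighbouring pair of groups overlapped. Among Dyrk1-labelled libraries, replicate 1 was the highest in Ccr7 and also the highest of all 18 in B cell markers. Without the 3 libraries high in B cell markers the Dyrk1 change was -0.92 (adjusted p 0.000487), and in a fit of its 6 libraries alone it did not pass (0.139). The HDAC1 change lost its call without any 1 of its 6 libraries, at adjusted p-values of 0.0791 to 0.134, with no filter (0.0865) and with length and GC trends removed (0.0766). Plasma cell markers, 6 of 6 above 0, summed to 1980 to 6050 FPKM in HDAC1-labelled libraries, against 489 to 1580 FPKM in WT, and their part in the result was not tested.

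Cxcr4, the receptor for Cxcl12, passed in no comparison. Its levels were 76.7, 32.2 and 27.6 FPKM in Dyrk1-labelled libraries, 27.3, 37.0 and 32.3 FPKM with the HDAC1 label and 23.3, 36.1 and 47.5 FPKM with the HDAC2 label. They were 52.6, 58.9 and 63.4 FPKM with the Mef2c label and 37.2, 47.2 and 50.4 FPKM with the Mef2d label, against 44.8, 46.2 and 46.6 FPKM in WT. The HDAC1-labelled libraries all lay below WT and the Mef2c-labelled libraries all above it, while the other groups overlapped WT. The log2 difference was -0.51 with the HDAC1 label (SE 0.30, adjusted p 0.276) and -0.41 with the HDAC2 label (SE 0.30, adjusted p 0.328). The spread of Cxcr4 was far wider in Dyrk1-labelled libraries (27.1 FPKM SD) than in WT (0.957 FPKM SD). The high Dyrk1 value of 76.7 FPKM came from replicate 1, where B cell markers summed to 406 FPKM, against 35.4 and 30.2 FPKM in the other 2 libraries of that label. The part of those markers in the Cxcr4 value was not tested.

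Ccr9, the receptor for the gut chemokine Ccl25, rose with the Mef2c label. Its levels were 5.71, 8.10 and 5.37 FPKM with the Dyrk1 label, 4.16, 6.75 and 4.12 FPKM with the HDAC1 label and 5.64, 8.12 and 4.65 FPKM with the HDAC2 label. They were 6.98, 6.92 and 8.19 FPKM with the Mef2c label and 7.03, 7.54 and 6.12 FPKM with the Mef2d label, against 5.58, 3.42 and 4.42 FPKM in WT. Both the Mef2c- and the Mef2d-labelled libraries lay wholly above WT, and the other groups overlapped it. The highest HDAC1 and HDAC2 values, 6.75 and 8.12 FPKM, came from replicate 2 of each. Plasma cell markers summed to 6050 and 10600 FPKM in those libraries, the highest of their groups. In WT the library highest in those markers, replicate 2 at 1580 FPKM, was the lowest in Ccr9. The part of those markers in Ccr9 was not tested. The log2 change was 0.63 with the Mef2c label (SE 0.20, adjusted p 0.0429). The differences of 0.54 with the Mef2d label (SE 0.20, adjusted p 0.0665) and 0.44 with the Dyrk1 label (SE 0.20, adjusted p 0.151) did not pass. The Mef2c call was lost without Mef2c replicate 1, 2 or 3 or WT replicate 2 or 3 (adjusted p 0.0924, 0.0749, 0.109, 0.135 and 0.114) and without the 3 libraries high in B cell markers (0.114). It was also lost with no filter on low values (0.08), with RLE scaling (0.06) and with length and GC trends removed (0.0946), and the Mef2d difference passed without WT replicate 1 (0.0483). In the annotation, exons of Ccr9 share 1932 bases with AC165425.1 and 22 with Slc6a20a, both on the opposite strand, and 269 with Gm17200 on the same strand. The strand setting of the counting is not given in the sources used here, so the Ccr9 values are uncertain.

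Ccr4, a receptor for Ccl17 and Ccl22 that guides Treg to skin and to dendritic cells, showed the largest change of the 9 receptors. Its levels were 19.8, 21.6 and 25.0 FPKM with the Dyrk1 label, 20.4, 19.2 and 23.6 FPKM with the HDAC1 label and 16.7, 18.5 and 17.5 FPKM with the HDAC2 label. They were 13.1, 14.9 and 12.5 FPKM with the Mef2c label and 9.36, 7.48 and 9.15 FPKM with the Mef2d label, against 25.3, 18.4 and 27.3 FPKM in WT. All Mef2c- and Mef2d-labelled libraries lay below all WT libraries, whereas Dyrk1- and HDAC1-labelled libraries lay within the WT range and HDAC2 replicate 2 just above the lowest WT library. The log2 change was -1.34 with the Mef2d label (SE 0.13, adjusted p 1.2e-05), -0.75 with the Mef2c label (SE 0.13, adjusted p 0.00136) and -0.39 with the HDAC2 label (SE 0.13, adjusted p 0.0406). The Mef2c and Mef2d calls held under every alternative tried. The HDAC2 call was lost without HDAC2 replicate 1, 2 or 3 (adjusted p 0.12, 0.0632 and 0.086), without WT replicate 1 or 3 (0.125 and 0.193) and without the libraries high in B cell markers (0.0545). It was also lost with no filter on low values (0.077), with length and GC trends removed (0.0737) and in a fit of its 6 libraries alone (0.0859).

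Tested directly against each other, the deletion groups also differed in Ccr4. From low to high the groups ran Mef2d, Mef2c, HDAC2, HDAC1, Dyrk1 and WT, at 8.66, 13.5, 17.5, 21.1, 22.1 and 23.7 FPKM. Neighbours up to HDAC1 did not overlap, and HDAC1, Dyrk1 and WT overlapped as neighbours. Over the other 8 receptors, the only neighbours in such an order that did not overlap were HDAC1 and WT in Cxcr3 and Mef2c and WT in Cxcr4. The groups were put in order by these same values. How often such gaps occur among all tested genes was not counted, so the gaps only describe these receptors. Of 90 differences between deletion groups (9 receptors in 10 pairs), 10 passed, or 6 for Ccr4, 2 for Ccr8 and 1 each for Ccr2 and Ccr6, beside 9.57% of all gene-by-pair differences. Without Dyrk1 replicate 1, the library highest in B cell markers, 18 passed. Ccr4 was higher with the Dyrk1 label than with the Mef2d label by 1.26 on the log2 scale (SE 0.13, adjusted p 1.78e-05) and than with the Mef2c label by 0.67 (SE 0.13, adjusted p 0.00199). It was higher with the HDAC1 label than with the Mef2d label by 1.19 (adjusted p 3.01e-05) and than with the Mef2c label by 0.60 (adjusted p 0.00784). HDAC2-labelled libraries exceeded Mef2d-labelled libraries by 0.95 (adjusted p 0.00037), and Mef2c-labelled libraries exceeded Mef2d-labelled libraries by 0.59 (adjusted p 0.0205). The last of these was lost without Mef2c replicate 1 or 2 or Mef2d replicate 2 (adjusted p 0.0502, 0.109 and 0.118) and without the libraries high in B cell markers (0.0657).

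The promoter of Ccr4 is shown because this receptor changed most. It is RefSeq's stretch from 250 bases before to 50 bases after the start site on GRCm38.p6, chr9:114496495-114496794, minus strand, 5′ to 3′, with capitals for a match to the AP-1 motif. The GENCODE annotation places the start of Ccr4 further upstream, with a span of 114490316 to 114504916. By that annotation the window lies inside the gene.
Ccr4 promoter: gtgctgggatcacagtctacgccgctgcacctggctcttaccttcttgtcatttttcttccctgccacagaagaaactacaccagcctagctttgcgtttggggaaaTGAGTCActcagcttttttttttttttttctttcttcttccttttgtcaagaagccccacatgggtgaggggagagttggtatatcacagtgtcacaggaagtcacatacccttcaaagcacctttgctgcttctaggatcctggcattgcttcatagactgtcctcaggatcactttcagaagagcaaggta
The AP-1 letters TGANTCA begin at position -143, counted from the start site at 0, directly after the letters GGAAA of the NFAT core at -148. The 8 receptors with a RefSeq promoter entry (Ccr6 had 2 entries) were searched on both strands for 6 motifs picked after the values had been seen. Of 32851 promoters of the same length, 7.81% held TGANTCA, 61.3% GGAAA, 3.98% the T-box letters GGTGTGA, 3.65% the forkhead letters TGTTTAC, 13.6% TATAAA and 3.19% the MEF2 motif. The Ccr4 promoter was the only one of the 9 searched to hold TGANTCA, none held the MEF2, T-box or forkhead letters, and Cxcr4 alone held TATAAA. A match describes letters in this window and says nothing of binding.

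Glb1, which encodes lysosomal beta-galactosidase and lies next to Ccr4, had the profile most like that of Ccr4 over the 18 libraries (Pearson r 0.942, Spearman rho 0.872, highest of 7744 genes averaging at least 5 FPKM). Its levels were 16.7, 15.7 and 17.2 FPKM with the Dyrk1 label, 16.8, 18.7 and 19.7 FPKM with the HDAC1 label and 15.2, 16.7 and 16.9 FPKM with the HDAC2 label. They were 13.5, 15.6 and 11.5 FPKM with the Mef2c label and 9.65, 9.60 and 10.9 FPKM with the Mef2d label, against 20.01, 18.9 and 22.2 FPKM in WT. As for Ccr4, the Mef2d-labelled libraries were the lowest, and all Mef2c- and Mef2d-labelled libraries lay below WT. Unlike for Ccr4, all Dyrk1- and HDAC2-labelled libraries lay below WT as well. The log2 change of Glb1 was -0.95 with the Mef2d label (SE 0.10, adjusted p 1.4e-05) and -0.57 with the Mef2c label (SE 0.10, adjusted p 0.00105). The libraries and the group pattern are common to both profiles, and r is a description.

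The neighbourhood was examined after these values had been seen. On GRCm38, Glb1 spans 114401076 to 114474898 of chromosome 9 on the plus strand and Ccr4 spans 114490316 to 114504916 on the minus strand, so that their 3′ ends face each other across 15417 bases. Of 16 other tested genes within 2 Mb of Ccr4, Glb1 and Cmtm7 fell with the Mef2c and the Mef2d label, and Tmppe rose. Beside them, 6.06% of all tested genes fell and 12.9% rose with the Mef2c label, and 7.95% and 13.9% with the Mef2d label. Nor were these changes particular to the 2 labels. Tmppe also rose with the HDAC1 and HDAC2 labels, and Glb1 also fell with the HDAC2 label, as did Cnot10. Cmtm7, a MARVEL-domain membrane protein gene, changed by -0.57 with the Mef2d label (SE 0.11, adjusted p 0.00271) and -0.33 with the Mef2c label (SE 0.11, adjusted p 0.0432). Tmppe, a transmembrane phosphatase gene, changed by 0.64 (SE 0.17, adjusted p 0.0154) and 0.58 (SE 0.17, adjusted p 0.0242) in the same order. Tmppe lies inside the span of Glb1 on the same strand, so reads of the pair may have been split between them. The median change of the 16 neighbours was -0.01 with the Mef2d label and -0.04 with the Mef2c label. Further out, within 20 Mb, changes of similar or greater size than that of Ccr4 ran in both directions. Col6a4 averaged 0.0274 FPKM in WT, against 3.21 with the Mef2c and 2.3 with the Mef2d label. Cpne4 averaged 0.00454 FPKM, against 1.93 and 1.46, and Rpl29 1330 FPKM, against 425 and 593. Whether these changes and that of Ccr4 share a cause was not tested.

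**Figure D4:**
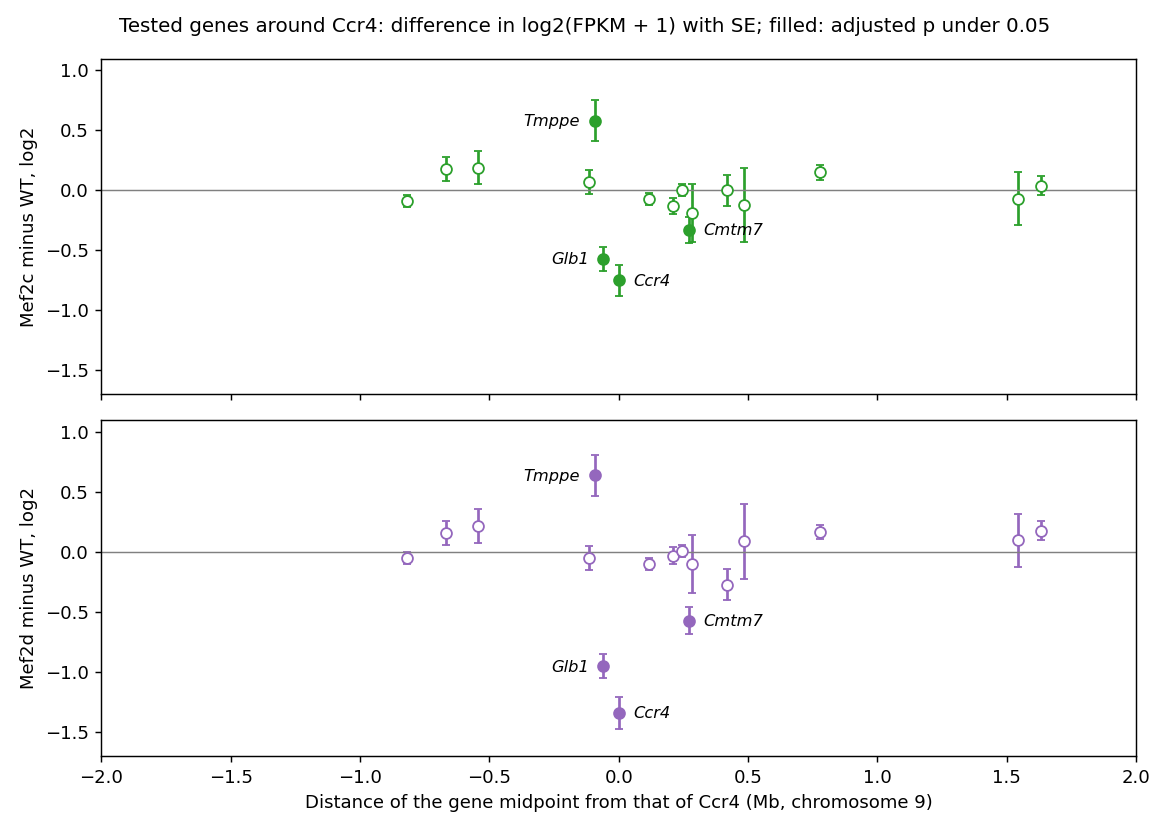
Difference in log2(FPKM + 1) from WT with 1 standard error (vertical axes) for Mef2c-labelled (upper) and Mef2d-labelled (lower) libraries, at the distance of each tested gene's midpoint from that of Ccr4 (horizontal axis, Mb). Filled points had an adjusted p under 0.05. Ccr4 and Glb1 lay lowest in both panels, at -1.34 and -0.95 with the Mef2d label, and most neighbours lay near 0.

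Ccr8, the receptor for Ccl1 and a marker of activated Treg in tissues and tumours, fell with 3 labels. Its levels were 35.9, 30.1 and 38.3 FPKM with the Dyrk1 label, 25.4, 24.2 and 28.3 FPKM with the HDAC1 label and 18.4, 23.1 and 22.4 FPKM with the HDAC2 label. They were 19.9, 23.4 and 26.9 FPKM with the Mef2c label and 21.4, 25.2 and 32.2 FPKM with the Mef2d label, against 31.0, 38.1 and 38.8 FPKM in WT. HDAC1-, HDAC2- and Mef2c-labelled libraries all lay below WT, 1 Mef2d-labelled library overlapped it, and Dyrk1-labelled libraries overlapped WT. The log2 change was -0.73 with the HDAC2 label (SE 0.15, adjusted p 0.00439), -0.60 with the Mef2c label (SE 0.15, adjusted p 0.012) and -0.45 with the Mef2d label (SE 0.15, adjusted p 0.0414). The HDAC1 difference was also -0.45 (SE 0.15) but did not pass (adjusted p 0.057). Ccr8 was higher with the Dyrk1 label than with the HDAC2 label by 0.68 (SE 0.15, adjusted p 0.00522) and than with the Mef2c label by 0.55 (SE 0.15, adjusted p 0.0155). The HDAC2 call held under every alternative tried. The Mef2c call was lost without Mef2c replicate 1 (-0.49, adjusted p 0.0656) or WT replicate 3 (0.0583), and the Mef2d call without Mef2d replicate 1 (-0.32, adjusted p 0.182), Mef2d replicate 2 (0.106), WT replicate 2 (0.0961) or WT replicate 3 (0.157). The Dyrk1 to Mef2c difference was lost without Dyrk1 replicate 3 (0.0584) or Mef2c replicate 1 (0.0751). Without all 3 libraries high in B cell markers the Mef2c, Mef2d and Dyrk1 to Mef2c adjusted p-values were 0.0514, 0.17 and 0.105. The Mef2d call was also lost with no filter (0.0756), with length and GC trends removed (0.108) and in its 6 libraries alone (0.0913), while the HDAC1 difference passed with RLE scaling (0.0405).

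The promoter of Ccr8 is shown to set it beside that of Ccr4, since the pair fell with the same 3 labels. It covers chr9:120091883-120092182 on the plus strand of GRCm38.p6 (RefSeq), and it has no capitals because none of the 6 motifs matched.
Ccr8 promoter: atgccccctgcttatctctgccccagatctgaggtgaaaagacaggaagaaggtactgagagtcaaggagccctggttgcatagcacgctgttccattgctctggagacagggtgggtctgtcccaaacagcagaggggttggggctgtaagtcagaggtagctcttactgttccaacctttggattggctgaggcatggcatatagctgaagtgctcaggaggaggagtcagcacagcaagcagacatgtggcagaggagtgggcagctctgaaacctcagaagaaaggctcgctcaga
The genes most like Ccr8 over the 18 libraries were H2afz, a histone variant gene (Pearson r 0.889, Spearman rho 0.926), and Prelid1, a mitochondrial lipid transfer gene (r 0.883, rho 0.92). Ccr8 itself correlated with Ccr4 at r 0.43 (rho 0.54) over the 18 libraries, which share the group pattern.

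Cxcr3, the receptor for the interferon-induced chemokines Cxcl9, Cxcl10 and Cxcl11, rose with the Dyrk1, HDAC2 and Mef2c labels. Its levels were 36.9, 39.6 and 53.6 FPKM with the Dyrk1 label, 31.9, 36.4 and 29.6 FPKM with the HDAC1 label and 37.9, 41.7 and 34.9 FPKM with the HDAC2 label. They were 39.3, 39.2 and 42.3 FPKM with the Mef2c label and 46.6, 26.4 and 33.7 FPKM with the Mef2d label, against 22.8, 20.9 and 29.6 FPKM in WT. Dyrk1-, HDAC2- and Mef2c-labelled libraries lay clear above WT, the lowest HDAC1-labelled library lay just above the highest WT library, and 1 Mef2d-labelled library overlapped WT. The log2 change was 0.80 with the Dyrk1 label (SE 0.18, adjusted p 0.00918), 0.71 with the Mef2c label (SE 0.18, adjusted p 0.0134) and 0.64 with the HDAC2 label (SE 0.18, adjusted p 0.0195). The differences of 0.50 with the Mef2d label (SE 0.18, adjusted p 0.0573) and 0.41 with the HDAC1 label (SE 0.18, adjusted p 0.139) did not pass. No difference in Cxcr3 between deletion groups passed, so the labels with a call are not shown to differ from those without. The Mef2c call held under every alternative tried, and the Dyrk1 call did not pass in a fit of its 6 libraries alone (adjusted p 0.103). The HDAC2 call was lost without HDAC2 replicate 1 or 2 (adjusted p 0.0554 and 0.066) or WT replicate 1 or 2 (0.06 and 0.0612). The Mef2d difference passed without Mef2d replicate 2 (0.69, adjusted p 0.0207).

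The promoter of Cxcr3, the receptor that rose with most labels, covers chrX:101734098-101734397 on the minus strand of GRCm38.p6 (RefSeq), again with no motif match and no capitals.
Cxcr3 promoter: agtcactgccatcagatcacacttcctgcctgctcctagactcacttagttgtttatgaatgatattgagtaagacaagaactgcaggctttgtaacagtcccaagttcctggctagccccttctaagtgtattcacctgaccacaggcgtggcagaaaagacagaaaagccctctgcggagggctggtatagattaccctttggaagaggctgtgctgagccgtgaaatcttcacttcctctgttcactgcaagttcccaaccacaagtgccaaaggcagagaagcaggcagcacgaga
The profiles most like that of Cxcr3 were D17H6S53E (Pearson r 0.85, Spearman rho 0.777) and Il18rap, a subunit of the interleukin-18 receptor (r 0.844, rho 0.794). Cxcr3 ran opposite to Ccr7 over the 18 libraries (r -0.78, rho -0.69), the strongest of the 36 correlations between receptors, with the groups and libraries common to both. For Ccr7 the most similar profiles were Tsc22d3, a glucocorticoid-induced leucine zipper gene, and Rars2, a mitochondrial arginyl-tRNA synthetase gene (r 0.884 each). For Ccr9 they were Gpsm3 (r 0.762) and Tmem126b (r 0.716), and for Ccr4 the gene after Glb1 was Ei24 (r 0.908).

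Cxcr6, the receptor for the membrane-bound chemokine Cxcl16, passed in no comparison. Its levels were 18.8, 25.2 and 32.9 FPKM with the Dyrk1 label, 26.2, 43.6 and 22.7 FPKM with the HDAC1 label and 31.0, 53.8 and 25.8 FPKM with the HDAC2 label. They were 21.6, 24.5 and 23.4 FPKM with the Mef2c label and 30.6, 19.7 and 19.9 FPKM with the Mef2d label, against 22.5, 19.5 and 20.1 FPKM in WT. HDAC1- and HDAC2-labelled libraries lay above WT, each with replicate 2 far above the other replicates, and the other groups overlapped WT. The log2 difference was 0.74 with the HDAC2 label (SE 0.27, adjusted p 0.0601) and 0.50 with the HDAC1 label (SE 0.27, adjusted p 0.24). Without HDAC2 replicate 3 the HDAC2 difference was 0.95 and passed (adjusted p 0.0364). The same replicate 2 libraries had the highest sums of plasma cell markers, 6050 FPKM with the HDAC1 label and 10600 FPKM with the HDAC2 label, against 489 to 1580 FPKM in WT. Their CD8 T and NK cell markers (9 of 9 above 0) summed to 125 and 144 FPKM, against 68.1 to 103 FPKM in WT. The part of those markers in Cxcr6 was not tested.

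Ccr6, the receptor for Ccl20, kept the most even level of the 9 receptors, with a ratio of 1.89 between the highest and the lowest library. Its levels were 16.8, 12.5 and 13.7 FPKM with the Dyrk1 label, 19.1, 15.8 and 20.1 FPKM with the HDAC1 label and 16.8, 16.7 and 16.0 FPKM with the HDAC2 label. They were 18.8, 17.4 and 18.3 FPKM with the Mef2c label and 18.7, 19.5 and 23.6 FPKM with the Mef2d label, against 18.8, 18.2 and 13.2 FPKM in WT. Ccr6 passed in no comparison with WT, and all 5 deletion groups overlapped WT. It was lower with the Dyrk1 label than with the Mef2d label, at a log2 difference of -0.49 (SE 0.13, adjusted p 0.0172). The difference no longer passed without Dyrk1 replicate 2 (adjusted p 0.0638), Dyrk1 replicate 3 (0.05) or Mef2d replicate 3 (0.08).

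Ccr2, the receptor for the monocyte chemoattractant Ccl2, likewise passed in no comparison with WT. Its levels were 8.45, 10.8 and 11.1 FPKM with the Dyrk1 label, 10.9, 12.8 and 9.96 FPKM with the HDAC1 label and 11.6, 16.9 and 12.3 FPKM with the HDAC2 label. They were 11.8, 10.5 and 12.2 FPKM with the Mef2c label and 9.66, 6.52 and 8.32 FPKM with the Mef2d label, against 12.6, 11.3 and 8.50 FPKM in WT. All 5 deletion groups overlapped WT. Ccr2 was higher with the HDAC2 label than with the Mef2d label by 0.67 (SE 0.17, adjusted p 0.0309). The difference no longer passed without HDAC2 replicate 2 or 3 (adjusted p 0.163 and 0.0547) or Mef2d replicate 2 or 3 (0.164 and 0.0718), nor did it pass with no filter (0.0571). Myeloid and dendritic cell markers, whose cells also express Ccr2, overlapped between these labels. They summed to 23.2 to 161 FPKM with the HDAC2 label and 11.3 to 319 FPKM with the Mef2d label. CD8 T and NK cell markers did not overlap, at 94.7 to 144 FPKM against 49 to 92.8 FPKM in the same order. Neither did plasma cell markers, at 3390 to 10600 FPKM against 227 to 601 FPKM. The library with most Ccr2, HDAC2 replicate 2 at 16.9 FPKM, gave the top HDAC2 sum in each of these lists. The part of all these markers in the Ccr2 difference was not tested.

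Of 28 chemokine ligand genes, 12 passed the filter. Ccl22, a ligand of Ccr4, was at 2.60, 3.63 and 2.87 FPKM with the HDAC2 label, 2.45, 2.15 and 2.58 FPKM with the Mef2c label and 2.64, 2.52 and 2.92 FPKM with the Mef2d label, against 13.3, 6.87 and 9.49 FPKM in WT. All of these libraries lay below WT, and the log2 changes were -1.40, -1.64 and -1.52 (SE 0.27 each, adjusted p 0.00346, 0.000788 and 0.00188). With the Dyrk1 and HDAC1 labels Ccl22 averaged 10.9 and 7.67 FPKM, against 9.88 FPKM in WT. Cxcl16, the ligand of Cxcr6, fell with the same 3 labels, to 0.996 ± 0.162, 0.817 ± 0.084 and 1.08 ± 0.306 FPKM, against 2.34 ± 0.35 FPKM in WT (adjusted p 0.0169, 0.00854 and 0.0268). Myeloid and dendritic cells are a known source of Ccl22, and their 12 markers summed to 23.2 to 161 FPKM with the HDAC2 label, 67.5 to 241 FPKM with the Mef2c label and 11.3 to 319 FPKM with the Mef2d label, against 14.8 to 198 FPKM in WT. These ranges overlapped, and 1 of the 12 markers was at 0, in Mef2d replicate 2. The highest of the 12 were S100a9, S100a8 and Lyz2, at 41.3, 37.1 and 17.6 FPKM on average in WT, so they weigh most in the sums. Csf1r, Flt3 and Adgre1 averaged lower with these 3 labels than in WT, and Itgax, Itgam, Siglech and Lyz2 higher. The others went both ways, and the part of such cells in the Ccl22 change was not tested. Xcl1, the ligand of Xcr1, rose with the HDAC2 label to 21.2 ± 6.99 FPKM, against 8.07 ± 1.84 FPKM in WT (log2 1.27, SE 0.33, adjusted p 0.013). NK cells also make Xcl1. Of the 9 CD8 T and NK cell markers, Klrb1c, Prf1 and Ncr1 rose with the HDAC2 label (log2 1.22, 0.90 and 1.06, adjusted p 0.0072, 0.0088 and 0.0327). The other 6 did not pass, with Nkg7, Gzma and Klrd1 averaging higher than in WT and Cd8a, Cd8b1 and Eomes lower. HDAC2 replicate 2 was the highest library of its group both in Xcl1 (29.3 FPKM) and in the sum of the 9 markers (144 FPKM). The sums ran from 94.7 to 144 FPKM with the HDAC2 label, against 68.1 to 103 FPKM in WT, and the part of those markers in the Xcl1 change was not tested.

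Counted by direction, 1 ligand rose and 2 fell with the HDAC2 label, and 0 rose and 2 fell with each of the Mef2c and Mef2d labels. Among all tested genes 16.1% rose and 9.41% fell with the HDAC2 label, 6.06% fell with Mef2c and 7.95% fell with Mef2d, and 1 or 2 of 12 genes cannot be set apart from such shares. By limma 0 of the 12 passed with the Dyrk1 or the HDAC1 label, where 1 each had a rise at an unadjusted p under 0.05. The median log2 change of the 12 was 0.21, 0.13, 0.16, 0.02 and 0.25 for the Dyrk1, HDAC1, HDAC2, Mef2c and Mef2d labels. Ccl2, Ccl19, Ccl20, Ccl21a, Cxcl9, Cxcl11 and Cxcl12, ligands of Ccr2, Ccr7, Ccr6, Cxcr3 and Cxcr4, did not reach the filter.

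Of 14 other chemokine receptor genes, 8 passed the filter. Cxcr5, which leads lymphocytes into B cell follicles, was at 19.2, 13.4 and 19.4 FPKM with the Dyrk1 label, 19.3, 18.8 and 17.8 FPKM with the HDAC2 label and 18.5, 21.4 and 17.8 FPKM with the Mef2c label, against 11, 10.6 and 11.1 FPKM in WT. It rose with these 3 labels, by 0.61, 0.72 and 0.76 on the log2 scale (SE 0.15 each, adjusted p 0.0161, 0.00536 and 0.00379), with no overlap. The 3 libraries high in B cell markers had 19.2, 18.5 and 16.7 FPKM of Cxcr5, a receptor that B cells carry too, and the part of B cells was not tested. Ccr10, a skin-homing receptor, fell with the Dyrk1 label to 2.44 ± 0.777 FPKM and with the Mef2d label to 2.48 ± 0.144 FPKM, against 6.41 ± 2.83 FPKM in WT (log2 -1.07 and -1.02, adjusted p 0.0233 and 0.0234). Xcr1 rose with the Dyrk1, Mef2c and Mef2d labels but averaged under 1 FPKM in every group. By label the 8 genes counted 2 higher and 1 lower with Dyrk1, 1 and 0 with HDAC1, 2 and 0 with HDAC2, 2 and 0 with Mef2c and 1 and 1 with Mef2d, with medians of 0.04, 0.07, 0.00, 0.04 and -0.11. Beside them, the shares of all tested genes higher and lower were 11.1% and 6.19%, 10.2% and 2.32%, 16.1% and 9.41%, 12.9% and 6.06%, and 13.9% and 7.95% in the same order, and counts this small say nothing particular of these receptors.

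**Figure D5:**
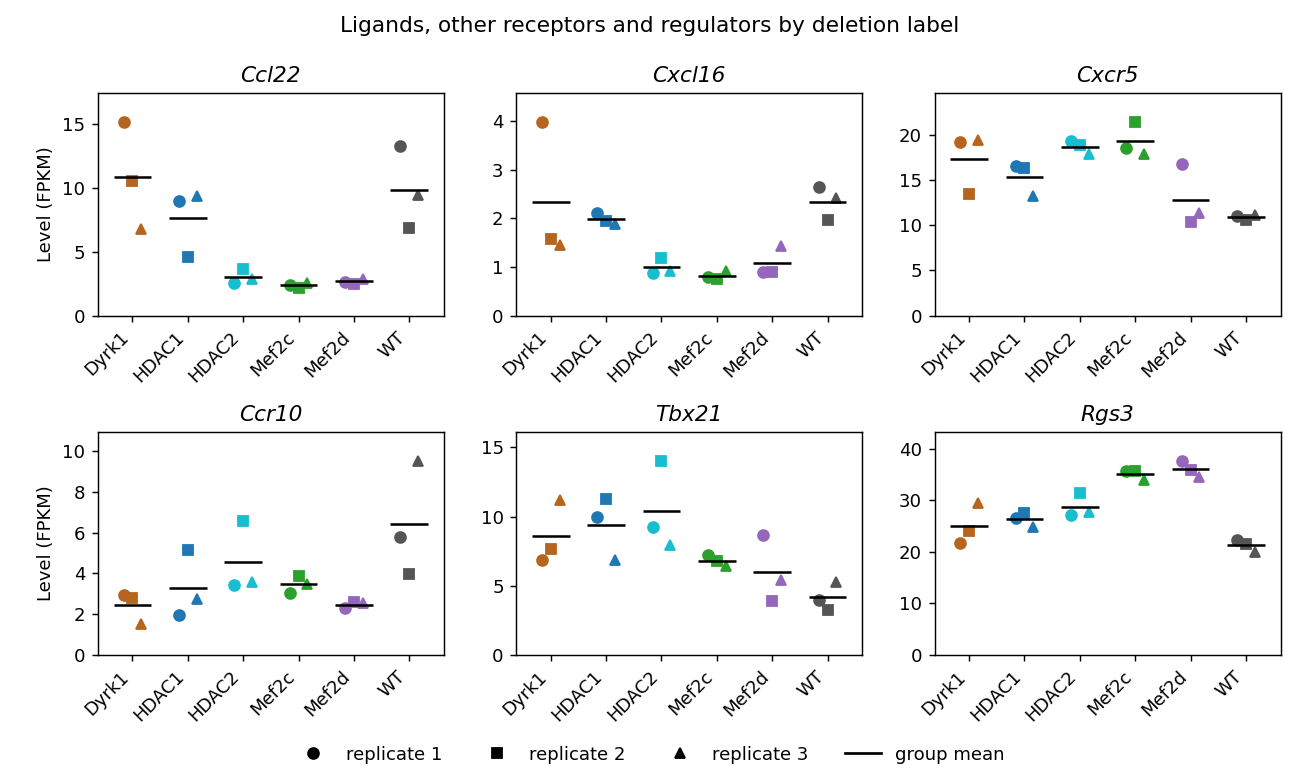
Level in FPKM (vertical axes, from 0) of Ccl22, Cxcl16, Cxcr5, Ccr10, Tbx21 and Rgs3 in each library, by deletion label and WT, with a bar at each group's mean. Ccl22 lay between 2.15 and 3.63 FPKM in the HDAC2-, Mef2c- and Mef2d-labelled libraries, all below the WT range of 6.87 to 13.3 FPKM.

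Of 34 genes that carry or end the signal of chemokine receptors, 33 were tested. Rgs3, which speeds the inactivation of inhibitory G proteins, rose with 4 labels, by 0.73 with Mef2d (SE 0.09, adjusted p 0.00011), 0.69 with Mef2c (SE 0.09, adjusted p 0.000113), 0.42 with HDAC2 (SE 0.09, adjusted p 0.00567) and 0.29 with HDAC1 (SE 0.09, adjusted p 0.0452). Its levels were 37.6, 35.8 and 34.6 FPKM with the Mef2d label and 35.6, 35.6 and 33.9 FPKM with the Mef2c label, against 22.4, 21.5 and 20 FPKM in WT. None of these libraries overlapped WT. Grk5, a kinase that phosphorylates activated receptors, rose with the same 4 labels, by 0.54 with Mef2d, 0.79 with Mef2c, 0.58 with HDAC2 and 0.56 with HDAC1 (SE 0.12 each), at 3.07 to 3.84 FPKM against 1.78 FPKM in WT. Dock8, a guanine exchange factor for migration, rose with the HDAC2 and Mef2d labels (0.38 and 0.35). So did the phospholipase genes Plcb2 (0.39 and 0.30) and Plcb3 (0.33 and 0.38). Gng2, a G protein gamma subunit, rose with the Mef2c label (0.38). With the Dyrk1 label Rgs16 (0.61) and the kinase gene Pik3cg (0.29) rose and Rgs10 (-0.53) and Rhoh (-0.26) fell. Rgs10 also fell with the Mef2c label (-0.36), the cytoskeletal gene Coro1a with the HDAC1 label (-0.22), and Cdc42 (-0.19) and Gnai2 (-0.16) with the HDAC2 label. The counts were 2 higher and 2 lower with the Dyrk1 label, 2 and 1 with HDAC1, 6 and 2 with HDAC2, 3 and 1 with Mef2c and 6 and 0 with Mef2d, with medians of 0.01, 0.03, 0.01, 0.05 and 0.02. Among all tested genes 11.1% rose and 6.19% fell with the Dyrk1 label, 10.2% and 2.32% with HDAC1, 16.1% and 9.41% with HDAC2, 12.9% and 6.06% with Mef2c and 13.9% and 7.95% with Mef2d, so these counts lie near the background.

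Of 22 transcription factors known to act on these receptor genes, 21 were tested. Tbx21, which encodes T-bet, a known activator of Cxcr3, was at 6.86, 7.68 and 11.2 FPKM with the Dyrk1 label, 9.97, 11.3 and 6.83 FPKM with the HDAC1 label and 9.25, 14.0 and 7.91 FPKM with the HDAC2 label, against 3.94, 3.29 and 5.27 FPKM in WT. It rose by 0.88, 1.00 and 1.12 on the log2 scale (SE 0.26 each, adjusted p 0.0294, 0.022 and 0.00706), with no overlap with WT. With the Mef2c label, where Cxcr3 passed, the Tbx21 difference of 0.61 did not pass (SE 0.26, adjusted p 0.107). NK cells also express Tbx21, and its highest values with the HDAC1 and HDAC2 labels, 11.3 and 14.0 FPKM, came from replicate 2 of each, where CD8 T and NK cell markers summed to 125 and 144 FPKM, against 68.1 to 103 FPKM in WT. Dyrk1 replicate 1 had the highest sum of all 18 libraries, 201 FPKM, and the lowest Tbx21 of its group. The sum mixes CD8 T with NK cell genes, so a high sum need not mean more NK cells. Cd8a and Cd8b1 averaged 7.98 and 20.9 FPKM with the Dyrk1 label, against 1.88 and 11.2 FPKM in WT. Each of these Dyrk1 averages rested largely on a single library, at 22.4 FPKM for Cd8a and 46.4 FPKM for Cd8b1. They do not describe the label as a group. The part of the CD8 T and NK cell markers in the Tbx21 change was not tested. Klf2, known to promote lymph node homing, fell by 0.63 on the log2 scale with the Mef2c label (SE 0.13, adjusted p 0.00532) and fell by 0.43 with the HDAC1 label (SE 0.13, adjusted p 0.0496). Irf4, a factor of effector Treg, fell with the Mef2c label (-0.40, SE 0.07, adjusted p 0.00224), where Rora rose (0.46, SE 0.14, adjusted p 0.0363). Ikzf2 (Helios) rose with the Dyrk1, HDAC1, HDAC2 and Mef2d labels by 0.44, 0.51, 0.42 and 0.48.

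Satb1 (-0.45) and Tcf7 (-0.30), factors of resting T cells, fell and Prdm1 (0.35) rose with the Dyrk1 label, and Satb1 rose with the Mef2d label (0.23). Zbtb7b rose with the HDAC2 and Mef2d labels (0.24 and 0.25) and Bach2 with the HDAC2 label (0.30). The counts for the 21 factors were 3 higher and 2 lower with the Dyrk1 label, 2 and 1 with HDAC1, 4 and 0 with HDAC2, 1 and 2 with Mef2c and 3 and 1 with Mef2d, with medians of 0.12, 0.06, 0.02, 0.05 and 0.02. They too lie near the shares of all tested genes, which were 11.1% higher and 6.19% lower with Dyrk1, 10.2% and 2.32% with HDAC1, 16.1% and 9.41% with HDAC2, 12.9% and 6.06% with Mef2c and 13.9% and 7.95% with Mef2d.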

How the data were processed

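RNA from 18 sorted Treg libraries was sequenced in pairs, and the authors deposited 1 table of values per gene. Per the submitters' processing notes, the tools were STAR and HTSeq and the build mm10; versions, annotation release and strand setting are not given in the sources used here. The table states no unit. The deposited values were taken as FPKM because totals of 430017 to 493453 per library were far from counts and because values scaled by a fitted gene length and a library factor were whole reads (tolerance 0.03) for all 9 receptors. Depths of 15.9 to 24.1 M reads are therefore estimates, which cover counting error only. RPKM cannot be told apart from FPKM here.

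Values were analysed as log2(FPKM + 1) with limma 3.58.1 in R 4.3.3. Genes with at least 1 FPKM in 3 or more libraries were kept, 12223 in all. A single fit had a mean per group, a trend of variance on level and 12 residual degrees of freedom. Adjusted p-values are Benjamini-Hochberg values over all tested genes, two-sided, with 0.05 as the threshold. Fold changes on this scale understate changes of low genes. Each deletion group was compared with WT, and the 10 pairs of deletion groups with each other. The unit called for limma, as the plan foresaw, and the fit was tested on simulated data.

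The receptors, gene lists, markers and tests were chosen with earlier results of these data known. All receptors are named with every library's value; a change is given where it passed or reached 0.4 on the log2 scale. Up to 4 passing genes of a list per comparison are named, by smallest adjusted p, and for each receptor that passed, the 2 genes most correlated with it. Beyond this limit, Plcb2 and Plcb3 are given for both labels in which they passed. A few results that this rule would name are not reported here. Symbols were found for 34490 of 35275 identifiers. Positions are from GENCODE M21 on GRCm38, the same build as mm10, and promoters from RefSeq on GRCm38.p6. Alternatives were another pseudocount, no filter, median-of-ratios (RLE) scaling, removal of length and GC trends, a replicate block, a comparison's 6 libraries alone, leaving out each library, and leaving out the 3 libraries more than 1 log2 unit above the median in B cell markers.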

Additional observations from a re-analysis of the deposited data

How the results depend on the processing

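Over 31 log2 changes of the receptors, 393 values were recomputed, of which 324 kept their direction and their side of the threshold, 60 no longer passed, 9 newly passed and 0 reversed. Receptors called came to 0 with the Dyrk1 label in the 6 libraries alone (2 as reported). With the HDAC1 label (1 as reported) they came to 0 with no filter, 2 with RLE scaling, 0 with length and GC trends removed, 2 without the libraries high in B cell markers and 3 in the 6 libraries alone. With the Mef2c label (4 as reported) they came to 2 without the libraries high in B cell markers. With the Mef2d label (2 as reported) they came to 1 with no filter, 1 without the libraries high in B cell markers and 1 in the 6 libraries alone. Differences between deletion groups came to 16 without those libraries (10 as reported). Genes called in all came to 58 of 2116 with the Dyrk1 label and 932 of 1533 with the HDAC1 label in the 6 libraries alone, to 1342 without the libraries high in B cell markers and 1341 in the 6 alone of 2322 with the Mef2c label, and to 1474 of 2677 with the Mef2d label without those libraries; the counts are totals and not shared genes. The cause was not tested.

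Leaving out 1 library at a time gave 2 to 2 receptors with the Dyrk1 label, 0 to 0 with HDAC1, 1 to 3 with HDAC2, 2 to 4 with Mef2c and 1 to 3 with Mef2d, 2 to 6 in the F test, and 8 to 18 differences between deletion groups. Genes called then ranged from 1188 to 2595, 421 to 1713, 1326 to 3282, 1150 to 2428 and 1077 to 2812 for the Dyrk1, HDAC1, HDAC2, Mef2c and Mef2d labels. Counts more than 1.5 times below those reported came without WT replicate 3 for all 5 labels, and also without Dyrk1 replicate 3 (1188), HDAC1 replicate 1 (558) or 2 (822), WT replicate 1 for HDAC1 (923), HDAC2 replicate 1 (1741), Mef2c replicate 1 (1184) and Mef2d replicate 1 (1359) or 2 (1644).

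RLE scaling changed the split of higher and lower genes to 1087 and 917 with the Dyrk1 label (1359 and 757 as reported), 762 and 716 with HDAC1 (1250 and 283 as reported), 1410 and 1623 with HDAC2 (1973 and 1150 as reported), 1074 and 1102 with Mef2c (1581 and 741 as reported) and 1222 and 1345 with Mef2d (1705 and 972 as reported), with 0 receptor changes reversed. Same-numbered libraries deviated from their group means with correlations of -0.45 to 0.46 (mean 0), over 0.1 in 18 of 45 pairs, against 26 of 90 pairs of different number. The labels tie no number to an animal, litter or day and not every pair was over 0.1, so the numbers were not used to pair libraries, although the 3 libraries high in B cell markers are all replicate 1. With a replicate block the receptors called were 2, 1, 3, 4 and 2, the HDAC1 change of Ccr7 (adjusted p 0.0672) and the HDAC2 to Mef2d difference of Ccr2 (0.0517) were lost, Ccr8 passed with the HDAC1 label (0.019; SE 0.10, against 0.15 with no block), and 8 of 18 libraries correlated best with their own number. With 3 libraries a group, calls near 0.05 (Ccr7 with HDAC1, Ccr4 with HDAC2, Ccr9 with Mef2c, Ccr8 with Mef2d) were each lost on leaving out any 1 of several libraries. Cxcr3 with the Mef2d label passed with length and GC trends removed (0.0406), and Cxcr4 with the HDAC1 label in the 6 libraries alone (0.04), as did Ccr8 with the HDAC1 label there (0.0488) and without the libraries high in B cell markers (0.0415).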
